A study of Mus musculus with 12 samples.

Results

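The protein kinase C (PKC) isoforms were examined in the spleen of mice fed 3 diets. The members were Prkca, Prkcb, Prkcd, Prkce, Prkch, Prkcq, Prkcz and Prkci, taken by gene symbol as 8 of the 19057 genes with a probe, and every array probe annotated to them was used, which gave 19 of 45281 probes. The arrays held 12 male C57BL/6J mice, 4 on each diet for 8 weeks, with 1 array per mouse. HFD-ED was a high-fat diet in which fat made up 15% of the weight, as 10% coconut oil, 3% corn oil and 2% of an oil rich in the n-3 fatty acids EPA and DHA. In HFD-CO fat was also 15%, as 10% coconut oil and 5% corn oil. Cholesterol was 1% of both high-fat diets. In the control diet fat was 5%, as 2.5% corn oil and 2.5% coconut oil, with no added cholesterol. The mice were bought at 6 weeks of age, were acclimatized for 3 weeks, and those used for the arrays had been selected by the authors from larger groups by body weight and plasma lipids.

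PKC enzymes are serine and threonine kinases that carry signals from receptors to their substrates. Phospholipase C cleaves a membrane lipid into diacylglycerol, which recruits PKC to the membrane, and a second product that releases calcium. The conventional isoforms alpha and beta need both calcium and diacylglycerol, the calcium-independent isoforms delta, epsilon, eta and theta need diacylglycerol alone, and the atypical isoforms zeta and iota need neither and act in complexes with polarity and scaffold proteins. In lymphoid tissue, PKC beta couples the B cell receptor to NF-kB, PKC theta does so below the T cell receptor, and PKC delta is known for restraining B cells and for its part in cell death. The study names Prkcb and Prkcd among its genes from these arrays, so that their inclusion here is not independent of these data.

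The upstream regions of the conventional isoforms are shown because the probes of Prkcb were among those lower on HFD-ED, while the brighter probe of Prkca was not. RefSeq promoter entries for build GRCm38.p6 were found for 6 of the 8 genes, 9 entries in all, each reaching 250 bases before the start of a transcript and 50 after it. Bases 180 to 22 before the start are printed 5′ to 3′ on the strand of the gene, and capitals mark matches to the motifs searched.
Prkcb, chr7:122288945-122289103, plus strand: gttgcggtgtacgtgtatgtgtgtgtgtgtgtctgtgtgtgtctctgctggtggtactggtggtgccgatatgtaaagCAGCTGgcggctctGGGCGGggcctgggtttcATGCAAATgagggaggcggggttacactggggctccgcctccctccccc
Prkca, chr11:108343910-108344068, minus strand: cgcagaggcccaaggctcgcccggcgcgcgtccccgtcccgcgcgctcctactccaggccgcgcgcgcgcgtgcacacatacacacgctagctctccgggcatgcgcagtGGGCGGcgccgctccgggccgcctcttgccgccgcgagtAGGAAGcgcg
The Prkcb stretch held the octamer ATGCAAAT, the motif of the B cell factor Oct-2 and of Oct-1, with its first base 70 before the start. It also held a GC box, GGGCGG, at 88 and CAGCTG, a form bound by E proteins, at 102. The Prkca stretch held a GC box at 70 and the ETS core AGGAAG at 31, and no octamer. Of 32851 promoter entries of the same length, searched on both strands, 1.74% held the octamer, 35.7% the GC box, 35.4% AGGAAG and 16.3% CAGCTG, while CACGTG, the last of the 5 motifs, was held by 7.15%. Of the 6 genes with an entry, Prkcb was the one that held the octamer. Prkcd and Prkcq, which were also lower on HFD-ED, did not hold it. Prkcd, on chromosome 14, had 4 GC boxes in 1 entry, at 101, 85, 70 and 53, with a CACGTG at 106 that shares a base with the first of them, and Prkcq, on chromosome 2, had AGGAAG at 94. These matches describe letters in a window, and binding was not measured. The genes shown were picked by their differences in these data, and a link between the motifs and the diets was not tested.

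Levels are normalized values on a scale close to log2, and most probes of the array lie near its lower end: the median of all probe means was 7.13, and 75.2% of probes had a mean under 7.5, where differences are compressed. Of the 19 isoform probes, 7 had a mean of 7.5 or more. These were the 3 probes of Prkcb, the single probe of Prkcd, and 1 probe each of Prkca, Prkcq and Prkch. All 4 probes of Prkce, all 4 of Prkcz and the single probe of Prkci lay near the lower end, with means between 7.04 and 7.38, as did the second probes of Prkca, Prkcq and Prkch, at 7.18, 7.15 and 7.12. Both atypical isoforms were therefore measured only near the lower end, where a true difference could be missed. Probes differ in affinity, and no order of the isoforms was read from their levels.

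The spleen markers were present and those of muscle were near the lower end. Titles and tissue labels name spleen, but skeletal muscle appears in the RNA extraction text of the samples. Of 9 skeletal muscle genes measured, 1 had a mean of 7.5 or more, and muscle creatine kinase, Ckm, had a mean of 7.04. B cells had Cd79b, a chain of the B cell receptor, at a mean of 12.7, T cells had Cd3d at 10.6, and red pulp macrophages had Slc40a1, the iron exporter, at 13.2. The HFD-ED mice were not alike: HFD-ED replicates 2, 3 and 4 stood apart on the first principal component, which carried 42.9% of the variance, with scores of 17.3, 37.5 and 15.03, against -8.41 for HFD-ED replicate 1. No 2 arrays were identical, and the lowest r across probes between mice of a diet was 0.971.

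Prkcb, Prkcd and Prkcq were lower in HFD-ED fed mice than in control fed mice, while the brighter probes of Prkca and Prkch differed by 0.028 and -0.021 log2 units. The differences of Prkcb, Prkcd and Prkcq were between -0.41 and -0.14, and none of the 19 probes passed an adjusted p of 0.05. Nor did any other probe of the array in this comparison, 0% in each direction. At an unadjusted p under 0.05, 5 of 19 isoform probes were lower, against 5.67% of all probes, and 0 were higher, against 4.54% of all probes. Bright probes pass more often, since 13.8% of those with a mean of 7.5 or more were lower at this p. There 5 of 7 isoform probes were lower, of which 3 are probes of the single gene Prkcb. With 1 probe per gene, 3 of 8 isoforms were lower, against 7.55% of genes, bright and dim together.

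**Figure D1:**
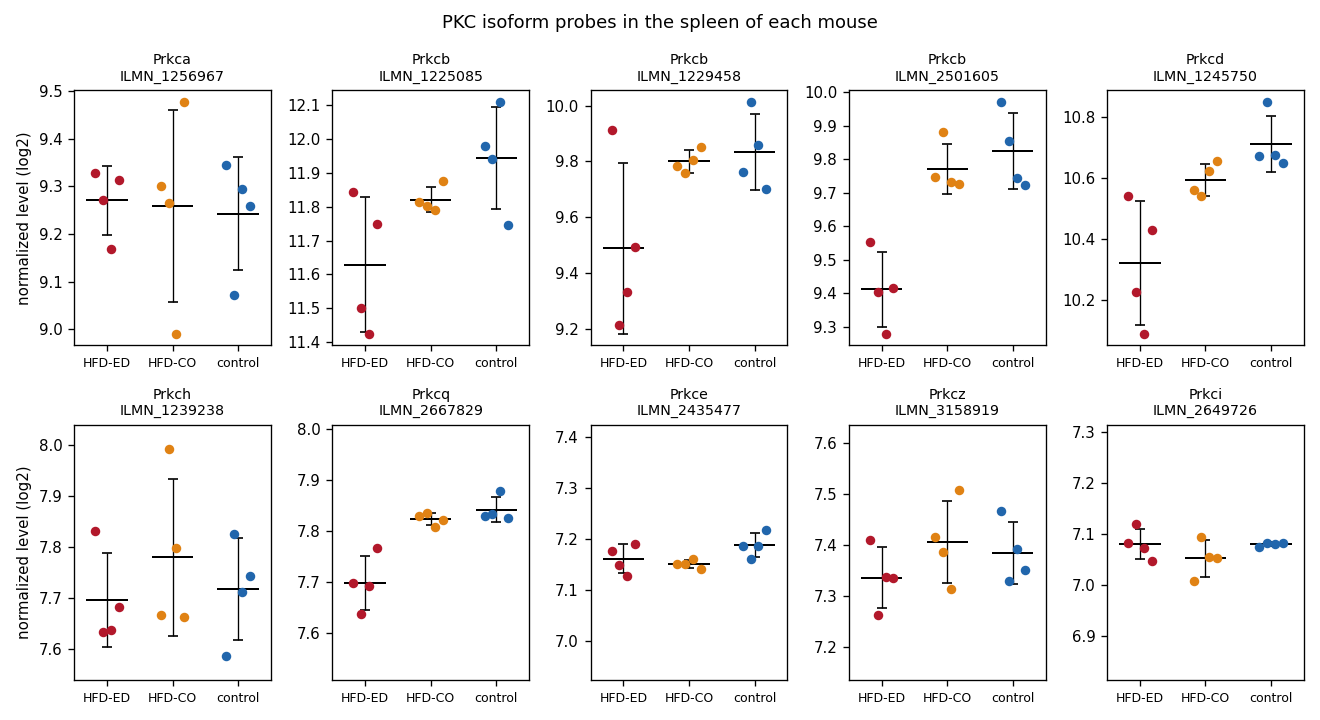
Normalized level (log2) of 10 probes of the PKC isoforms in each mouse, for HFD-ED, HFD-CO and control, with replicates 1 to 4 from left to right as points, the mean as a line and the SD as a bar (n = 4). The Prkcb probe ILMN_2501605 lay between 9.28 and 9.55 in HFD-ED fed mice and above that range in all other mice; vertical axes differ between panels.

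Prkcb was measured by 3 probes, which correlated with r from 0.76 to 0.84 over the 12 mice. The probe with the highest mean, ILMN_1225085, stood at 11.84, 11.50, 11.43 and 11.75 in HFD-ED replicates 1 to 4, at 11.81, 11.80, 11.79 and 11.88 in the HFD-CO mice and at 11.98, 11.94, 12.11 and 11.75 in the control mice. HFD-ED replicates 2 and 3 were the lowest of all mice, while HFD-ED replicates 1 and 4 lay among the others. The difference from control was -0.31 log2 units (SE 0.094, limma adjusted p = 0.341), or 0.804-fold. The probe ILMN_1229458 stood at 9.91, 9.21, 9.33 and 9.49 in HFD-ED, at 9.78, 9.76, 9.81 and 9.85 in HFD-CO and at 9.76, 10.01, 9.86 and 9.70 in control mice. Here HFD-ED replicate 1 was among the highest of all mice and the other HFD-ED mice were the lowest, for a difference of -0.35 (SE 0.13, limma adjusted p = 0.410).

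The probe ILMN_2501605 of Prkcb separated HFD-ED from both other diets. It stood at 9.55, 9.40, 9.28 and 9.41 in HFD-ED, at 9.75, 9.88, 9.73 and 9.72 in HFD-CO and at 9.97, 9.85, 9.74 and 9.72 in control mice. All 4 HFD-ED mice, replicate 1 included, lay below all 8 others. The difference from control was -0.41 (SE 0.067, 95% interval from -0.56 to -0.26, limma adjusted p = 0.193), or 0.752-fold. Without HFD-ED replicate 1 it was -0.46 with an adjusted p of 0.0366 in limma, and this was the one isoform probe to pass the threshold under any of the alternatives. Its unadjusted limma p in that fit was 3.4e-05. With the adjustment over all probes, other probes of the array then passed as well, and their share was not counted.

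Prkcd, the calcium-independent isoform delta, was lower in HFD-ED fed mice. Its level was 10.54, 10.23, 10.09 and 10.43 in HFD-ED, 10.56, 10.54, 10.62 and 10.66 in HFD-CO and 10.67, 10.85, 10.68 and 10.65 in control mice. The HFD-ED mice did not overlap with the control mice, and HFD-ED replicate 1 lay close to the HFD-CO mice. The difference from control was -0.39 (SE 0.087, 95% interval from -0.58 to -0.20, limma adjusted p = 0.252), or 0.763-fold.

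Prkcq, the isoform theta of T cells, differed less in size but with little spread. The probe ILMN_2667829 stood at 7.70, 7.64, 7.69 and 7.77 in HFD-ED, at 7.83, 7.83, 7.81 and 7.82 in HFD-CO and at 7.83, 7.83, 7.88 and 7.83 in control mice. All HFD-ED mice lay below all others. The difference from control was -0.14 (SE 0.024, limma adjusted p = 0.193) at a level close to the lower end of the scale, where differences are compressed. The other Prkcq probe had a mean of 7.15 and a difference of -0.042 (SE 0.023). Over the 19 probes, 3 had HFD-ED and control mice without overlap and lower, against 2.85% of all probes and 5.6% of probes with a mean of 7.5 or more.

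The brighter probes of Prkca and Prkch did not stand apart between the diets. Prkca stood at 9.33, 9.27, 9.17 and 9.31 in HFD-ED, at 9.30, 9.27, 8.99 and 9.48 in HFD-CO and at 9.35, 9.07, 9.30 and 9.26 in control mice. These are levels of the brighter probe, ILMN_1256967, which is annotated to the gene symbol without a named transcript. The dim Prkca probe has a named transcript, so the reading of Prkca is less secure. The diets overlapped, with a difference of 0.028 between HFD-ED and control and a 95% interval from -0.18 to 0.23. For this probe, a change of the size seen for Prkcb was not within the interval. Without control replicate 2 this difference was -0.029. The dim Prkca probe ILMN_1217890 differed by -0.033 with an interval from -0.070 to 0.0047. Over the 12 mice r between the 2 Prkca probes was -0.42, so that they did not vary together. HFD-CO replicate 4, the highest mouse for Prkca, also stood apart in pancreatic enzyme genes, a list that deviated by 5.03 log2 units there, by 1.12 in HFD-CO replicate 1 and by -0.78 to -0.10 in the others. Prkca differed by 0.016 between HFD-CO and control, and by -0.057 without this mouse. Prkch, the isoform eta, stood at 7.83, 7.63, 7.64 and 7.68 in HFD-ED, at 7.67, 7.99, 7.80 and 7.66 in HFD-CO and at 7.59, 7.83, 7.71 and 7.74 in control mice, with a difference of -0.021 from control and an interval from -0.19 to 0.15. The sign of this difference turned without control replicate 2, at 0.015.

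The dim isoforms differed by little. Over the 4 probes of Prkce, the isoform epsilon, the differences between HFD-ED and control lay between -0.026 and 0.022, with the smallest limma p at 0.146. The 4 probes of Prkcz lay between -0.052 and -0.0042, with the smallest p at 0.165, and Prkci differed by 0.00029 (SE 0.02). By class, with 1 probe per gene, 1 of 2 conventional, 2 of 4 calcium-independent and 0 of 2 atypical isoforms were lower at an unadjusted p under 0.05, against 7.55% of all genes, with median differences of -0.14, -0.085 and -0.024 beside -0.0036 over all genes. The classes were not tested against each other, and they differ in how many members were above the lower end.

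**Figure D2:**
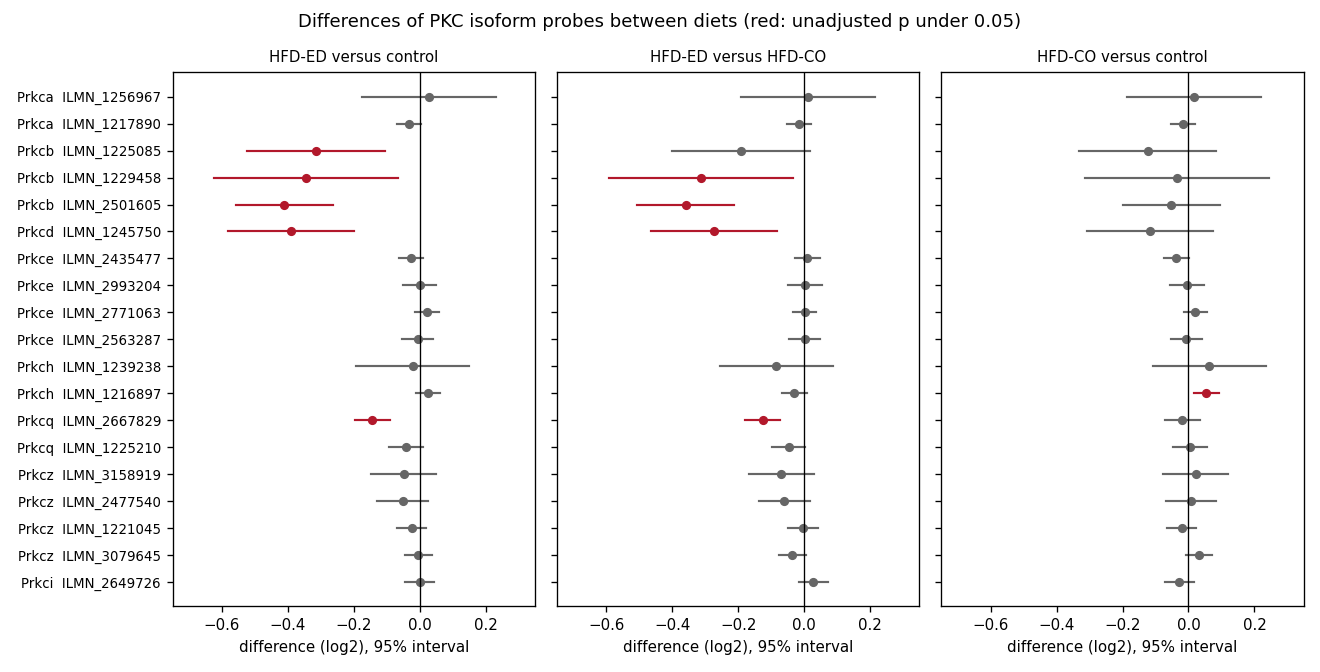
Difference in log2 units of each of the 19 isoform probes in the 3 diet comparisons, first diet minus second, as points with 95% intervals from limma, in red where the unadjusted p was under 0.05. The 3 Prkcb probes, Prkcd and Prkcq lie between -0.41 and -0.14 for HFD-ED versus control, and the probes of Prkce, Prkcz and Prkci lie close to 0.

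Prkcb, Prkcd and Prkcq were also lower in HFD-ED than in HFD-CO fed mice, on diets of equal fat content. The HFD-ED mice are shared with the comparison above, so that the 2 comparisons are not independent. At an adjusted p under 0.05, 0 of 19 isoform probes passed, against 0.00221% of all probes, which is 1 probe. At an unadjusted p under 0.05, 4 of 19 were lower, against 4.7% of all probes, and 0 were higher, against 4.6%. Among probes with a mean of 7.5 or more, 4 of 7 isoform probes were lower, against 10.4%. The Prkcb probe ILMN_2501605 differed by -0.36 (SE 0.067, limma adjusted p = 0.330) and ILMN_1229458 by -0.31 (SE 0.13, adjusted p = 0.50), while ILMN_1225085 differed by -0.19 with an interval from -0.40 to 0.017. Prkcd differed by -0.27 (SE 0.087, adjusted p = 0.452), with HFD-ED replicate 1 at the lowest HFD-CO mouse. Prkcq differed by -0.13 (SE 0.024, adjusted p = 0.330). HFD-ED and HFD-CO mice did not overlap for 2 of the 19 probes, those of Prkcb and Prkcq with no overlap against control, beside 2.24% of all probes.

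HFD-CO fed mice were also compared with control fed mice. At an adjusted p under 0.05, 0 of 19 probes passed, and 0% of all probes did. At an unadjusted p under 0.05, 0 were lower, against 2.44% of all probes, and 1 was higher, against 2.14%. This was the dim Prkch probe ILMN_1216897, at 7.17, 7.13, 7.16 and 7.14 in HFD-CO and at 7.09, 7.09, 7.08 and 7.11 in control mice, for a difference of 0.055 (SE 0.017, limma adjusted p = 1.0). The diets did not overlap for it, and of all probes 1.44% were higher without overlap. The brighter Prkch probe differed by 0.063 with an interval from -0.11 to 0.23, and by -0.008 without HFD-CO replicate 2. Prkcb ILMN_1225085 differed by -0.12 and Prkcd by -0.12, with intervals from -0.33 to 0.085 and from -0.31 to 0.073.

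The isoforms were then set beside the markers of the leukocytes that express them. A marker list was summarized per mouse as the mean deviation of its genes from their 12-mouse means, in log2 units. The B cell list, 11 genes measured of 14, stood at 0.055, -0.14, -0.39 and -0.10 in HFD-ED, at 0.077, 0.029, 0.028 and 0.099 in HFD-CO and at 0.12, 0.16, 0.032 and 0.032 in control mice, so that HFD-ED replicates 2, 3 and 4 were the lowest and HFD-ED replicate 1 was not. At an unadjusted p under 0.05, 3 of its 11 genes were lower than in control and 0 higher, against 7.55% and 5.69% of all genes, and 6 of 11 were lower than in HFD-CO and 0 higher, against 5.82% and 6.07%. The T cell list, 13 genes measured of 15, stood at 0.11, -0.020, -0.36 and -0.087 in HFD-ED, at 0.058, 0.11, 0.0065 and 0.083 in HFD-CO and at -0.068, 0.066, 0.057 and 0.040 in control mice, with HFD-ED replicate 3 far below the rest. The erythroid list ran the other way, at -0.49, 0.77, 1.35 and 0.71 in HFD-ED, at -0.28, -0.70, 0.36 and -0.56 in HFD-CO and at -0.59, -0.64, -0.092 and 0.17 in control mice. The neutrophil list, 14 genes measured of 15, stood at -0.26, 0.59, 1.79 and 0.38 in HFD-ED, at -0.26, -0.70, -0.46 and -0.57 in HFD-CO and at -0.35, -0.58, 0.20 and 0.23 in control mice, with HFD-ED replicate 3 far above the rest. All 14 genes were higher in HFD-ED than in control mice, with a median difference of 0.70 and 2 at an unadjusted p under 0.05, and all 14 were higher than in HFD-CO mice, with a median of 1.05 and 10 at this p. In whole spleen, fewer cells of a type and less RNA per cell cannot be told apart.

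Prkcd varied with several marker lists across the mice, the B cell list among them. The permutations shuffled mice across the diets, so their p-values also take in differences between diets. Over 12 mice Pearson r was 0.93 (permutation p adjusted over 120 pairs of isoform and list = 0.0048) and Spearman rho was 0.82 (permutation adjusted p = 0.085). Without HFD-ED replicates 2 and 3, the mice farthest from the median of the list, r was 0.81, with the diet means subtracted it was 0.89, and within the 8 HFD-CO and control mice it was 0.70 (exact permutation p = 0.047, unadjusted). The dendritic cell list, with 10 genes, gave r of 0.85 (permutation adjusted p = 0.026), rho of 0.91 (permutation adjusted p = 0.013) and 0.85 within the 8 mice. The other lists that passed an adjusted p of 0.05 by permutation were NK cells with r of 0.78 (adjusted p = 0.035) and stroma with 0.80 (0.035), and, with the opposite sign, neutrophils with -0.82 (0.030), erythroid cells with -0.81 (0.026), megakaryocytes and platelets with -0.84 (0.026) and cell division with -0.86 (0.022). With the diet means subtracted these were 0.42, 0.72, -0.87, -0.69, -0.77 and -0.71, in the same order. Within the 8 HFD-CO and control mice they were 0.57, 0.17, -0.0025, -0.18, 0.57 and -0.40. The T cell list gave 0.71 over all mice (permutation adjusted p = 0.10), 0.72 with the diet means subtracted and -0.15 within the 8 mice. Many lists thus varied with Prkcd, and their correlations were not tested against each other. The red pulp macrophage list gave 0.46 over all mice (permutation adjusted p = 0.39), 0.088 with the diet means subtracted and 0.87 within the 8 HFD-CO and control mice (exact permutation p = 0.0074, unadjusted).

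Prkcb also varied with the B cell list, and its correlation was not tested against that of Prkcd. Its brightest probe gave r of 0.83 (permutation adjusted p = 0.026) and rho of 0.84 (permutation adjusted p = 0.074), with r of 0.69 after the diet means were subtracted. Without HFD-ED replicates 2 and 3 r was 0.46, and within the 8 HFD-CO and control mice r was 0.30 (exact permutation p = 0.46) and rho 0.67 (exact permutation p = 0.083), both unadjusted. Prkcq gave 0.45 with the T cell list (permutation adjusted p = 0.39) and 0.19 within the 8 mice, and Prkch 0.53 with the T cell list (permutation adjusted p = 0.27) and 0.62 within the 8 mice. The megakaryocyte and platelet list, 13 genes measured of 15, stood at 0.042, 0.33, 0.66 and 0.32 in HFD-ED, at -0.29, -0.27, -0.20 and -0.17 in HFD-CO and at -0.039, -0.15, -0.095 and -0.13 in control mice. Its HFD-ED mice did not overlap with the others, as for Prkcq, and r between Prkcq and this list was -0.77 over 12 mice (permutation adjusted p = 0.056), -0.079 with the diet means subtracted and 0.32 within the 8 mice. The dendritic cell list also separated HFD-ED replicates 1 to 4, at -0.049, -0.049, -0.15 and -0.051, from the others, of which the lowest was at -0.023. Here HFD-ED was lower, as for Prkcq. Between Prkcq and the dendritic cell list r was 0.62 over 12 mice (permutation adjusted p = 0.14), -0.12 with the diet means subtracted and 0.081 within the 8 mice. Of the 120 pairs, 11 passed an adjusted p of 0.05, 8 of Prkcd and 3 of Prkcb, and 0 passed within the 8 mice. Beside the B cell list, those of Prkcb were the erythroid list, with r of -0.77, and the cell division list, with -0.81, and within the 8 mice they were -0.27 and -0.39.

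**Figure D3:**
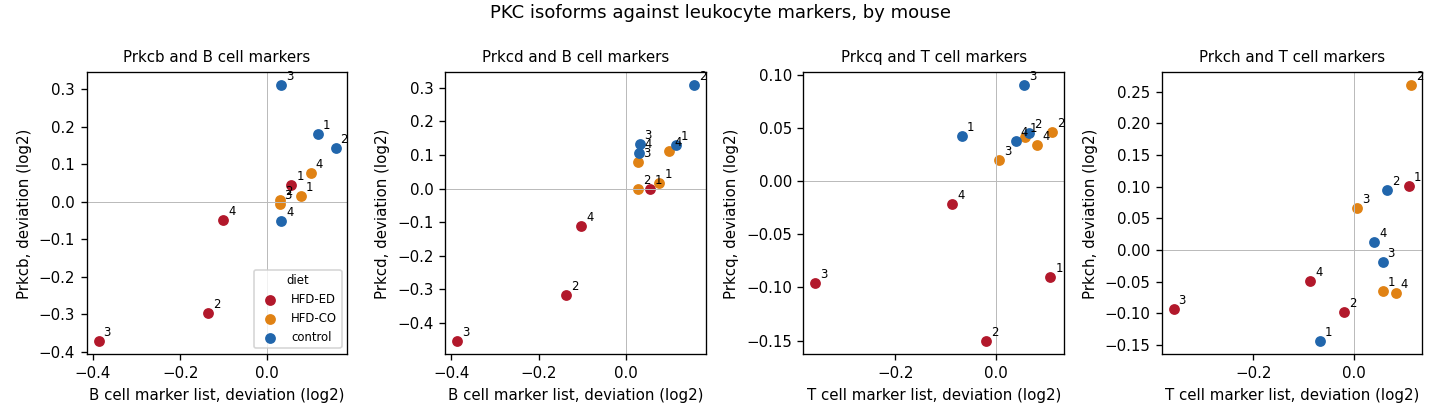
Deviation from the 12-mouse mean (log2) of Prkcb and Prkcd against the B cell list, and of Prkcq and Prkch against the T cell list, with a point per mouse that is numbered by replicate and has the color of its diet. For Prkcd, HFD-ED replicates 2, 3 and 4 are low on both axes, with r of 0.93 over the 12 mice. For Prkcq, the 4 HFD-ED mice are the lowest, from -0.15 to -0.021, with T cell list deviations from -0.36 to 0.11.

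The isoforms were also compared as their deviation minus that of a list, a step chosen after the data were seen, with 21 comparisons. Exact two-sided permutation tests were used, and with 4 mice on each side their smallest possible p is 0.0286. Prkcd minus the B cell list averaged -0.079 ± 0.072 in HFD-ED and 0.086 ± 0.057 in control mice (SD, n = 4 each), a difference of -0.16 (exact permutation p = 0.0286, adjusted p = 0.30) where the full difference was -0.39. The Prkcb probe ILMN_2501605 minus the B cell list differed by -0.18 (exact permutation p = 0.0286, adjusted p = 0.30), and the brightest Prkcb probe by -0.088 (exact permutation p = 0.43). Prkcq minus the T cell list differed by -0.031 (exact permutation p = 0.83), and against HFD-CO by 0.029, with the sign turned. Its SD was 0.21 in HFD-ED and 0.058 in control mice, and HFD-ED replicate 3 stood at -0.36 in the T cell list. With the diet means subtracted, r between Prkcq and this list was 0.017. The subtraction puts both on an equal scale, while this probe lies where differences are compressed. These values therefore cannot show what part goes with T cell RNA. What part of the isoform differences goes with B cell or T cell RNA was not tested beyond these values.

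The isoforms with lower levels on HFD-ED varied together. Over 12 mice r was 0.88 for Prkcb and Prkcd, 0.80 for Prkcb and Prkcq and 0.80 for Prkcd and Prkcq, and within the 8 HFD-CO and control mice it was 0.47, 0.79 and 0.15. These values are descriptive, and the points share the diets and the arrays. Among 7009 other genes, the gene most like Prkcd over the 12 mice was Blk, a B cell tyrosine kinase, with r of 0.96. Blk is itself a gene of the B cell list, so this value is not separate from the correlation with that list. Kmt2a, Spint1, Casp8 and Arhgap30 followed at 0.96 to 0.94. The genes most like Prkcb were Spag9 at 0.95, Mier2, Chkb, Vps28 and Trim26, and those most like Prkcq were Rfx1 at 0.94, Itm2b, Ints4, Fgd2 and Ctsc. Within the 8 HFD-CO and control mice, r was 0.83 to 0.71 for the genes named with Prkcd and 0.89 to 0.69 for those named with Prkcb, whereas for Rfx1, Itm2b, Ints4, Fgd2 and Ctsc with Prkcq it was 0.37, 0.20, 0.76, 0.45 and 0.18. For Prkca and Prkch they were led by Dnlz at 0.89 and Acbd3 at 0.91, and for the dim Prkce, Prkcz and Prkci by Zfp511 at 0.90, Rab12 at 0.92 and Slc15a4 at 0.78.

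Genes that act with PKC were taken from 9 lists, of which 95 genes were measured. Of these, 0 passed an adjusted p of 0.05 in any comparison. Between HFD-ED and control, 17 were lower at an unadjusted p under 0.05 and 6 higher, against 7.55% and 5.69% of all genes, with a median difference of -0.034 beside -0.0036. Of the 95 genes, 64 had a mean of 7.5 or more, and bright probes pass more often. In a fit of only such probes, 10 partner genes were lower. In the fit of all probes, 13.8% of the probes at that level were lower, so the 2 values come from different fits. Over all 95 genes, the lower count was 11 without HFD-ED replicate 3. Between HFD-ED and HFD-CO, 15 were lower and 4 higher, against 5.82% and 6.07% of all genes, and without HFD-CO replicate 4 the lower count was 9. Of all probes with a mean of 7.5 or more, 10.4% were lower in this comparison. Between HFD-CO and control, 5 were lower and 3 higher, against 2.88% and 2.12% of all genes.

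Upstream of PKC, none of the 10 phospholipases C had an unadjusted p under 0.05 between HFD-ED and control. Among 9 measured antigen receptor kinases and adaptors, 5 were lower and 0 higher, against 7.55% and 5.69% of all genes. Of these 9 genes, 8 had a mean of 7.5 or more, where 13.8% of all probes were lower. Vav2, an exchange factor of antigen receptor signalling, had 10.85 in HFD-ED and 11.12 in control mice, a difference of -0.26 (SE 0.055, limma adjusted p = 0.251). Vav1, its lymphoid relative, differed by -0.32, the kinase Tec by -0.27 and the kinase Syk by -0.14. Vav2 and Syk were also lower in HFD-CO than in control mice, by -0.21 and -0.15. Among the 6 measured diacylglycerol kinases, which remove diacylglycerol, Dgki was lower than in control by -0.057 at the lower end of the scale, and Dgka, the isoform of T cells, differed by -0.35 from control and by -0.44 (SE 0.17, limma adjusted p = 0.485) from HFD-CO.

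Of 12 other diacylglycerol receptors, 3 were lower and 0 higher in HFD-ED than in control mice, against 7.55% and 5.69% of all genes. Of the 12, 8 had a mean of 7.5 or more, where 13.8% of all probes were lower. Rasgrp1, which activates Ras in T cells, had 10.78 in HFD-ED and 11.23 in control mice, a difference of -0.44 (SE 0.099, limma adjusted p = 0.252). Chn2, beta-chimaerin, differed by -0.13 from control (SE 0.043, limma adjusted p = 0.377) and by -0.19 from HFD-CO (limma adjusted p = 0.342), and protein kinase D2, Prkd2, a kinase that PKC phosphorylates, differed by -0.30 from control.

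Substrates, scaffolds and the remaining lists ran both ways. Of 20 measured substrates and scaffolds, 4 were lower and 3 higher in HFD-ED than in control mice, against 7.55% and 5.69% of all genes. Of the 20, 16 had a mean of 7.5 or more, where 13.8% of all probes were lower. Cavin3, a caveolar protein that binds PKC delta, differed by -0.36, and Akap12, a scaffold, by -0.25. Lmnb1, a nuclear lamin, had 9.74 in HFD-ED and 8.99 in control mice, a difference of 0.75 (SE 0.26, limma adjusted p = 0.394), and the adducin Add1, a protein of the membrane skeleton of red cells, differed by 0.32. The cell division list, beside which Lmnb1 is given, had 13 of 15 genes higher at an unadjusted p under 0.05, against 5.69% of all genes. The erythroid list, beside which Add1 is given, had 7 of 13 higher, and 0 were lower in both lists. Of 15 partners of the atypical isoforms, 1 was lower, Mark2 by -0.21, and 1 higher, Stk11 by 0.32, close to the 7.55% and 5.69% of all genes. Of 10 measured genes of maturation and turnover, Cdc37, a cochaperone of kinases, was higher by 0.082, and of the related kinases Pkn2 was higher by 0.38.

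**Figure D4:**
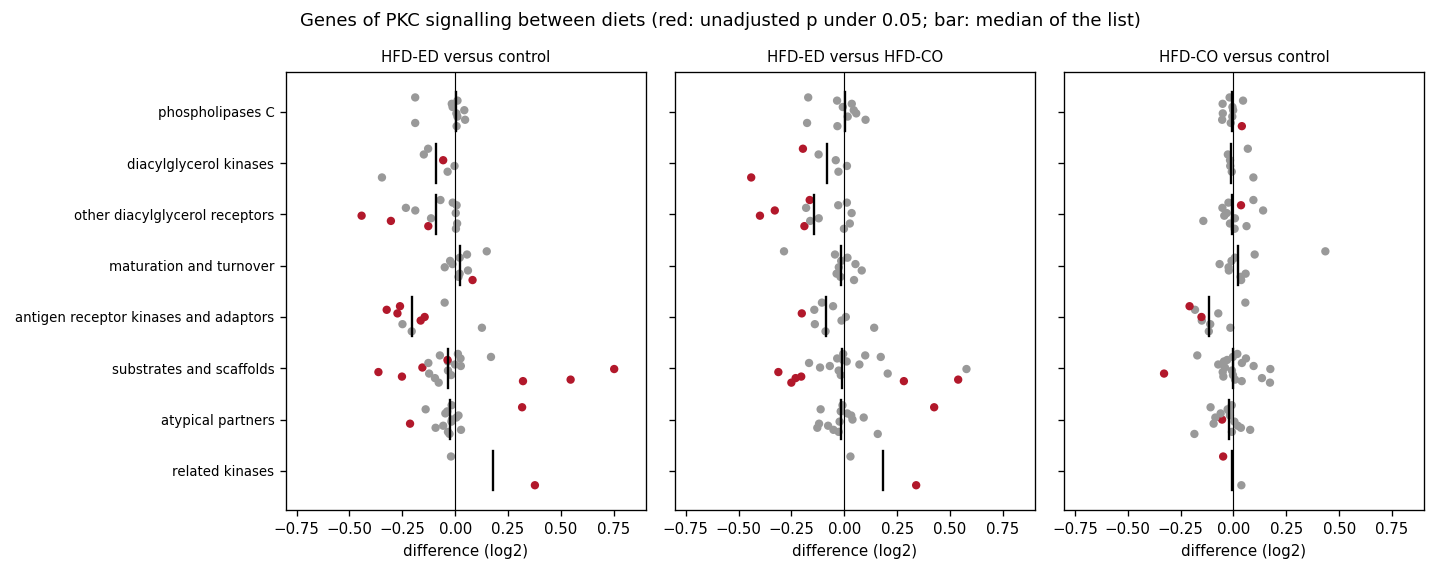
Difference in log2 units of the genes of 8 lists of PKC signalling in the 3 diet comparisons, first diet minus second, with a point per gene, red where the unadjusted p was under 0.05, and the median of a list as a bar. For HFD-ED versus control, Rasgrp1 lies at -0.44 and Lmnb1 at 0.75.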

How the data were processed

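Spleen RNA was hybridized to Illumina MouseWG-6 v2.0 arrays. Per the paper's methods and the labels, the authors extracted bead intensities and ran lumi 2.18.0, with a transformation that stabilizes the variance and with quantile normalization. The deposited log2 values were used unchanged. All 45281 probes, of which 10378 carry no gene symbol and 18 several, were fitted in R 4.3.3 with limma 3.58.1, 1 coefficient per diet, and 3 comparisons were adjusted by the Benjamini-Hochberg method over all probes. For gene lists, 1 probe per symbol, that with the highest mean, was taken. Correlations over 12 mice were tested with 100000 permutations, those over 8 mice exactly, in both cases without regard to diet. The fit was tested on simulated data. The members and lists were chosen with earlier results of these data known. Named genes were all member probes, per partner list up to 4 genes with the smallest p for HFD-ED versus control and up to 2 for the other comparisons, up to 3 genes with the highest mean per marker list, and the 5 genes most like each isoform. Replicate numbers do not pair the mice: 4 of 12 pairs of equal number correlated above 0.1. Alternatives were the replicate block, other variance models, array weights, filters, normalizations, and leaving out each mouse. The number of arrays limits the precision, and p-values measure the spread between these selected mice. Listed genes without a probe were not analysed here. One of the 9 partner lists is counted in the totals and is not reported on its own here.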

Additional observations from a re-analysis of the deposited data

Results flagged for a closer look

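Values far from the other mice of a diet, by Dixon's test within groups of 4, were found for 9 of 102 groups tested, or 8.82%, where chance gives about 1 in 20. HFD-CO replicate 2 was high for the Prkcb probe ILMN_2501605, at 9.882. Control replicate 2 was high for Prkcd, at 10.85, and control replicate 3 for the Prkcq probe ILMN_2667829, at 7.878. Among the dim Prkcz probes, HFD-ED replicate 3 was low for ILMN_1221045, at 7.181, and control replicate 3 high for ILMN_3079645, at 7.135. Of the marker lists, as mean deviations in log2 units, HFD-ED replicate 3 was low for dendritic cells, at -0.1535, and high for mast cells and basophils, at 0.2211. HFD-ED replicate 1 was the highest of its diet for pancreatic genes, at -0.102, and control replicate 1 for adipocyte genes, at 0.1296.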

How the results depend on the processing

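Counts of isoform probes at an unadjusted p under 0.05 depended on the choice of probe. With 1 probe per gene symbol, 3 isoform probes were lower for HFD-ED versus control in place of 5, 2 for HFD-ED versus HFD-CO in place of 4, and 0 were higher for HFD-CO versus control in place of 1. Without probes of a mean under 7.5, that last count was 0, and partner genes lower were 10 in place of 17 for HFD-ED versus control and 2 in place of 5 for HFD-CO versus control. The replicate block gave 2 higher probes for HFD-CO versus control in place of 1 and changed no other count by over 1.5 times; since the numbers do not pair the mice (3 of 12 correlated best with their own number), the reported values have no block. A fit of only the 2 diets gave 2 lower probes for HFD-CO versus control in place of 0. The 11 pairs of isoform and list that passed became 0 in the 8 HFD-CO and control mice, 2 with diet means subtracted, 1 without the 2 mice farthest from the median, 1 with Spearman's rho and 25 with the mean of all probes of an isoform.

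Leaving out each mouse in turn gave 0 to 1 isoform probes past an adjusted p of 0.05 for HFD-ED versus control, 4 to 6 lower and 0 to 1 higher at the unadjusted p, 3 to 5 lower for HFD-ED versus HFD-CO, and 0 to 1 lower and 1 to 2 higher for HFD-CO versus control. The 1 probe past the threshold appeared without HFD-ED replicate 1 alone, a fit in which other probes of the array passed too. Partner genes ranged from 11 to 18 lower and 3 to 8 higher for HFD-ED versus control, from 9 to 20 lower and 2 to 8 higher for HFD-ED versus HFD-CO, and from 2 to 9 lower and 2 to 4 higher for HFD-CO versus control. Counts moved by over 1.5 times without HFD-ED replicates 1, 3 and 4, HFD-CO replicates 1, 2 and 4 and control replicates 1, 2 and 3.

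Of 666 values of single isoforms under alternatives, 20 changed sign, and none of these passed the threshold. Prkci for HFD-ED versus control was -0.00517 with array weights and -0.000134 with cyclic loess. Without 1 mouse in turn, the differences for HFD-ED versus control ranged from -0.0294 to 0.0617 for Prkca, from -0.0664 to 0.015 for Prkch and from -0.0128 to 0.0115 for Prkci, those for HFD-CO versus control from -0.0571 to 0.105 for Prkca, from -0.00802 to 0.101 for Prkch, from -0.0126 to 0.0518 for Prkcz and from -0.0778 to 0.0258 for the Prkcb probe ILMN_1229458, and that for HFD-ED versus HFD-CO from -0.0775 to 0.0847 for Prkca. Minus a marker list, Prkcb was 0.00951 and Prkcq 0.0289 for HFD-ED versus HFD-CO, Prkch 0.0917 for HFD-ED versus control and 0.0703 for HFD-ED versus HFD-CO, and Prkcd 0.00836 for HFD-CO versus control with the red pulp macrophage list. The cause was not tested. All 3 Prkcb probes, Prkcd and Prkcq kept their sign for HFD-ED versus control under every alternative run.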
